A study of Mus musculus with 6 samples.

Results

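The genes described here code for the subunits of the mitochondrial respiratory chain and of ATP synthase in LPS/IFN-γ-primed bone marrow-derived macrophages (BMDMs). They were taken from the count table by symbol, as the Ndufa, Ndufb, Ndufc, Ndufs and Ndufv genes, the Uqcr genes and Cyc1, the Cox4 to Cox8 genes, the Atp5 genes, and the Nd, Co, Cytb and Atp genes of mitochondrial DNA. The patterns matched 105 of 23935 symbols, and 95 remained after 10 pseudogene symbols ending in -ps were left out. Of the 95 members, 82 are coded in the nucleus and 13 in mitochondrial DNA. By complex, 45 belong to complex I, 10 to complex III, 21 to complex IV, with Ndufa4 and Ndufa4l2 counted there, and 19 to complex V. Expression was high enough for testing in 93 members, and the other two, the Ndufa11b and Ndufb4c retrocopies, had between 0 and 22 counts in a library.

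The libraries came from BMDMs of 3 PKM2ΔMAC and 3 PKM2FL/FL mice, with 1 library per mouse. PKM2ΔMAC mice carry PKM2FL/FL alleles and LysM-Cre, in which Cre is driven from the lysozyme locus of myeloid cells, and the PKM2FL/FL littermates carry the floxed alleles alone, so no group without floxed alleles or with LysM-Cre alone was compared. All cells were differentiated with M-CSF for 7 days and then primed for 16 h with LPS at 10 ng/mL together with IFN-γ at 25 ng/mL. No unprimed cells were sequenced, so the comparison is between genotypes within the primed state. The ages of the marrow donors were not given in the sources used here. The totals were 49957449 to 54524651 counts per library, of which 892785 to 960475 fell on the members.

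The floxed gene Pkm was measured at 1706 ± 8.08 CPM (counts scaled to the TMM-adjusted library size; SD, n = 3) in PKM2FL/FL and at 1068 ± 125 CPM in PKM2ΔMAC cells, with all 3 PKM2ΔMAC libraries below all 3 PKM2FL/FL libraries and an adjusted p of 0.00913 (edgeR quasi-likelihood test, Benjamini-Hochberg). Gene-level counts do not separate its M1 and M2 transcripts. Lyz2 fell from 17820 to 28.4 CPM. The macrophage genes Csf1r (2925 to 3755 CPM) and Adgre1 (1666 to 2236 CPM) were abundant in every library. Nos2, which codes for the inducible nitric oxide synthase, was at 0.0385 to 0.490 CPM in all 6 libraries, and Acod1, which codes for the itaconate-producing enzyme, at 1.63 to 4.27 CPM. These levels of 2 genes known to be induced by LPS and IFN-γ were low in both genotypes of cells labelled as primed. The 8 neutrophil markers summed to 20.3 to 48.8 CPM in PKM2FL/FL and 90.1 to 170.0 CPM in PKM2ΔMAC libraries, and the 20 cell cycle genes to 772.1 to 774.8 and 899.2 to 1247 CPM, although none of these genes passed the test (5 of the 8 and 9 of the 20 had an unadjusted p under 0.05). Their part in the results below was not tested. PKM2ΔMAC replicate 2 stood apart from the other PKM2ΔMAC libraries, with the highest cell cycle sum and the highest Pkm level of its genotype.

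Complex I takes electrons from NADH, complex III passes them from ubiquinol to cytochrome c, and complex IV hands them to oxygen. The protons moved on the way drive complex V, the ATP synthase, and most subunits are coded in the nucleus and imported, while a small core is coded and made inside the mitochondrion. Macrophages activated with LPS and IFN-γ are known to lean on glycolysis, the pathway in which pyruvate kinase works, and to lower their oxidative phosphorylation, so the question put to these genes is whether loss of PKM2 went with a different expression of the machinery of respiration.

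No subunit gene passed the test. Of the 93 members tested, 0 had an adjusted p under 0.05 (edgeR's quasi-likelihood test, Benjamini-Hochberg adjustment over 16516 genes), where 68 genes of the whole table, or 0.412%, did. DESeq2 also called 0 members, with 0 at an unadjusted p under 0.05. At an unadjusted p under 0.05 there were 2 members, or 2.15%, against 9.83% of all genes tested. The CPM values of the genotypes did not overlap for 6 members, or 6.45%, against 17.2% of all genes, with 4 members higher and 2 lower in PKM2ΔMAC beside 8.92% and 8.32% of all genes. On this scale each of these shares was below that of the whole table. Overlap depended on the scaling. On deposited TPM, 27 members did not overlap and all 27 were higher in PKM2ΔMAC (29% of members, against 19% of all genes higher and 3.15% lower without overlap). Lyz2 held 4.48 to 4.96% of TPM in PKM2FL/FL libraries and at most 0.00876% in PKM2ΔMAC, and with Lyz2 left out of the TPM total, a setting chosen after seeing the data, 8 members did not overlap, 6 higher and 2 lower, beside 8.06% and 7.67% of all genes. The median log2 fold change of PKM2ΔMAC over PKM2FL/FL was 0.0010 over the members, with 48 above and 45 below 0, and -0.00021 over all genes.

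**Figure D1:**
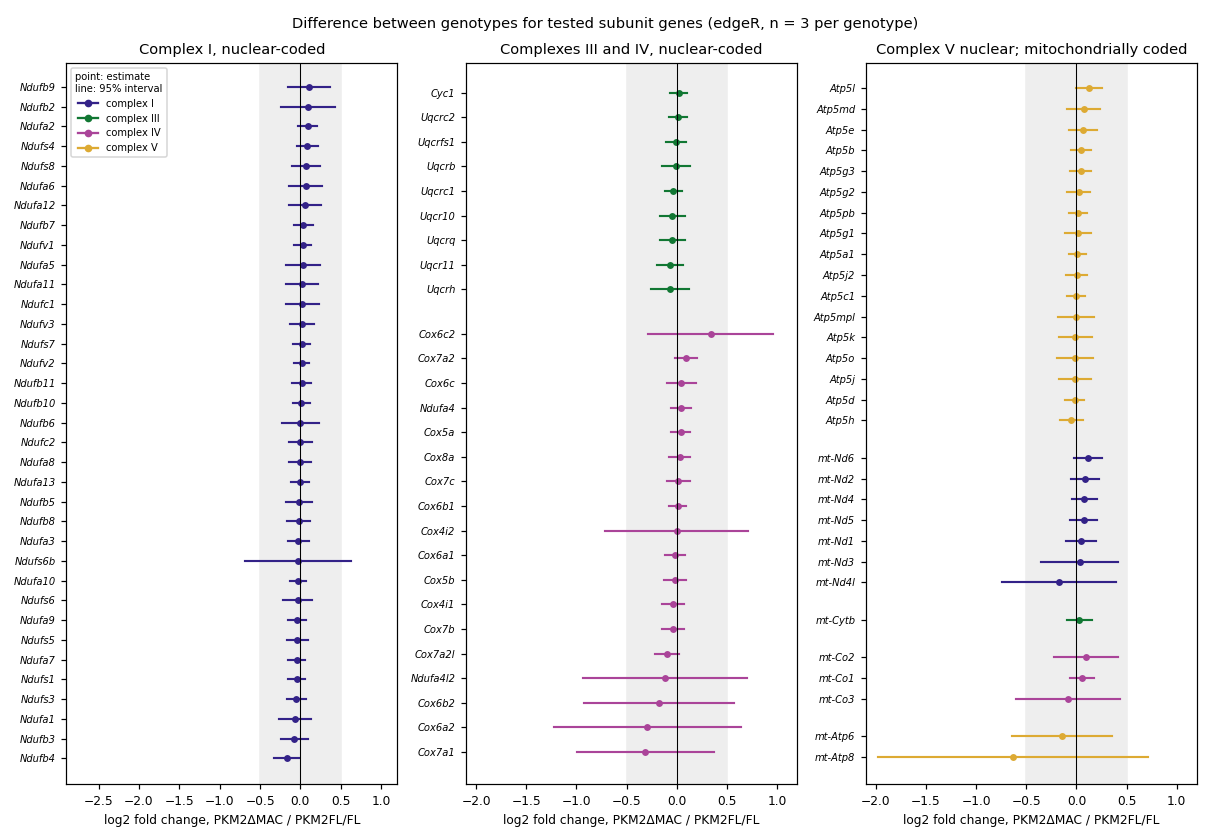
Estimated log2 fold change of PKM2ΔMAC over PKM2FL/FL (x axis) for tested subunit genes (y axis), with points for estimates, lines for 95% intervals of the edgeR fit with 3 libraries per genotype, colours for complexes and a grey band from -0.5 to 0.5. The lines of abundant genes stay inside the band, and the long lines belong to the low tissue-restricted genes and retrocopies and to the weakly counted mitochondrial genes.

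The intervals say how large a difference these libraries leave room for. The 95% interval of the log2 fold change lay wholly within ±0.2 for 56 of the 93 members (60.2%) and for 26.8% of all genes tested, and within ±0.5 for 82 members (88.2%) and for 59.5% of all genes. Among genes of at least 10 CPM the shares within ±0.2 were 70.0% of 80 members and 48.7% of all genes. All 80 of these members had an interval inside ±0.5, as had 91.7% of all genes of that level. The median spread between mice was also a little smaller in the members of at least 10 CPM, with a coefficient of variation of 3.34% in PKM2FL/FL and 3.93% in PKM2ΔMAC libraries, against 3.76% and 5.31% for all genes of at least 10 CPM. Over the 13 mitochondrially coded members, which include genes under 10 CPM, the median was 3.43% and 8.47%. The 11 members whose interval reached beyond ±0.5 were the Cox6c2 and Ndufs6b retrocopies, the tissue-restricted Cox4i2, Cox6a2, Cox6b2, Cox7a1 and Ndufa4l2, and the mitochondrial mt-Atp8, mt-Atp6, mt-Co3 and mt-Nd4l. All 11 averaged under 10 CPM over the 6 libraries.

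**Figure D2:**
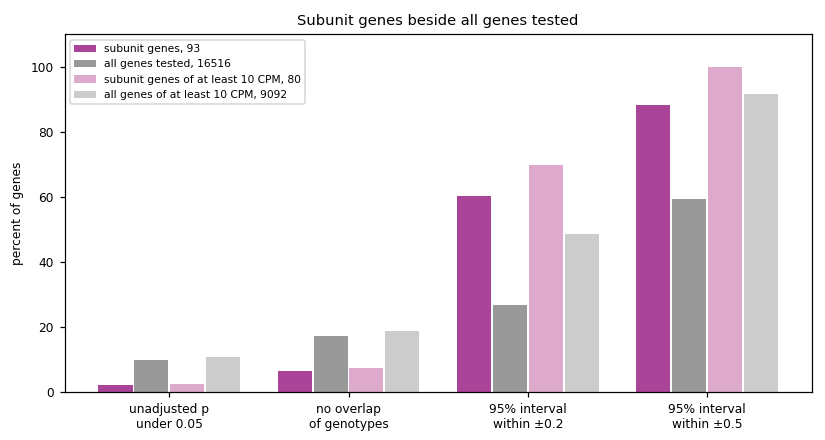
Percent of genes (y axis) with an unadjusted p under 0.05, with no overlap between genotypes, and with a 95% interval of the log2 fold change inside ±0.2 or ±0.5, for subunit genes and for all genes tested, both for every level and for genes of at least 10 CPM. The subunit genes have the lower bars in the first pair of measures and the higher bars in the other pair.

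Complex I was represented by 36 tested nuclear genes with a median log2 fold change of 0.0060, 19 of them above 0 and 17 below. Ndufb4, an accessory subunit of the membrane arm, had the smallest unadjusted p of all members. It was measured at 19.4, 19.5 and 21.8 CPM in the PKM2FL/FL libraries and at 17.5, 17.9 and 18.4 CPM in the PKM2ΔMAC libraries. Every PKM2ΔMAC value lay below every PKM2FL/FL value. The log2 fold change was -0.17 with an SE of 0.070 and a 95% interval of -0.33 to -0.012, at an adjusted p of 0.471 in edgeR's quasi-likelihood test and p = 0.1 in the exact permutation test, the smallest p that 3 against 3 libraries allow. Of the 50-base pieces of Ndufb4 transcripts, 18.3% also occur in the retrocopy Ndufb4c.

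Ndufs4, an accessory subunit that stabilises the peripheral arm, had no overlap between genotypes in the other direction. It was at 22.1, 22.4 and 22.9 CPM in PKM2FL/FL against 23.6, 23.2 and 24.7 CPM in PKM2ΔMAC libraries. The step was small, with an estimate of 0.084 on the log2 scale (SE 0.057) and an adjusted p of 0.679 in edgeR's test. The rule for naming genes did not select Ndufs4, and it is given here because it belongs to the 6 members without overlap.

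The 7 nuclear core subunits, which carry the flavin and the iron-sulfur clusters, ranged from -0.055 (Ndufs3) to 0.071 (Ndufs8). Levels per transcript length, given as TPM, ran from 2.70 for Ndufb2 to 262 for Ndufa2 among the 35 complex I genes left when the retrocopies are set aside, with a median of 62.2 TPM. Ndufb2, a small membrane-arm subunit, was low on the count scale too, at 3.85 to 4.55 CPM in PKM2FL/FL and 3.79 to 4.92 CPM in PKM2ΔMAC libraries, and these ranges overlapped. The TPM values divide by the length of all annotated exons together, which is 5628 bases for Ndufb2, so genes with long alternative exons come out low. Ndufab1, the mitochondrial acyl carrier protein that is also a complex I subunit, has a symbol outside the patterns and had a log2 fold change of -0.058 (SE 0.059).

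Complex III was the most even of the complexes. Its 9 nuclear genes spanned 76.8 to 209 TPM, a 2.72-fold range, against 8.54-fold for complex IV without its restricted isoforms and retrocopy and 29.2-fold for complex V. Uqcrq, the lowest, was at 74.4, 80.6 and 73.0 TPM in PKM2FL/FL and 73.9, 84.7 and 74.3 TPM in PKM2ΔMAC libraries, with overlapping ranges. The 9 log2 fold changes lay between -0.067 (Uqcrh, the hinge protein near cytochrome c1) and 0.019 (Cyc1, cytochrome c1 itself), 7 of them below 0. The median was -0.035 on TMM-scaled counts and turned to 0.037 in the limma-trend fit on log2(TPM + 1), a fit that gave a median of 0.063 over all genes. With each library left out in turn, the edgeR median ran from -0.053 (without PKM2ΔMAC replicate 3) to -0.012 (without PKM2ΔMAC replicate 1). None of the 9 genes had an unadjusted p under 0.05 in edgeR or separated the genotypes in CPM. On TPM, Cyc1 (87.4, 87.9 and 88.9 against 92.2, 96.4 and 93.0) and Uqcrc2 (77.8, 80.5 and 80.6 against 81.4, 88.8 and 82.8) did not overlap, 2 of 9 genes where 19% of all genes were higher without overlap. Cyc1 had an unadjusted p under 0.05 in the limma-trend fits, as had 10.5 to 13.4% of all genes.

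Complex IV holds the genes for which tissues use different versions. The forms known from most tissues were abundant. Cox8a was at 499 ± 16.3 TPM in PKM2FL/FL and 536 ± 12.9 TPM in PKM2ΔMAC cells (SD, n = 3), and Cox6a1, Cox7a2l, Cox6b1 and Cox4i1 had genotype means between 386.5 and 472.1 TPM. Next to them stood the versions known from lung (Cox4i2), heart and skeletal muscle (Cox6a2 and Cox7a1), testis (Cox6b2) and hypoxic cells (Ndufa4l2), with averages of 1.47 to 7.11 TPM over the 6 libraries. These low versions were nevertheless counted in every library, Cox6a2 with 13 to 35 and Cox6b2 with 18 to 27 counts. The floor of 3 counts corresponds to 0.0546 to 0.0604 CPM here, and the lowest single value among them was 0.262 CPM, for Cox6a2 in PKM2ΔMAC replicate 3. Whether such counts come from BMDMs or from a few other cells was not tested.

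**Figure D3:**
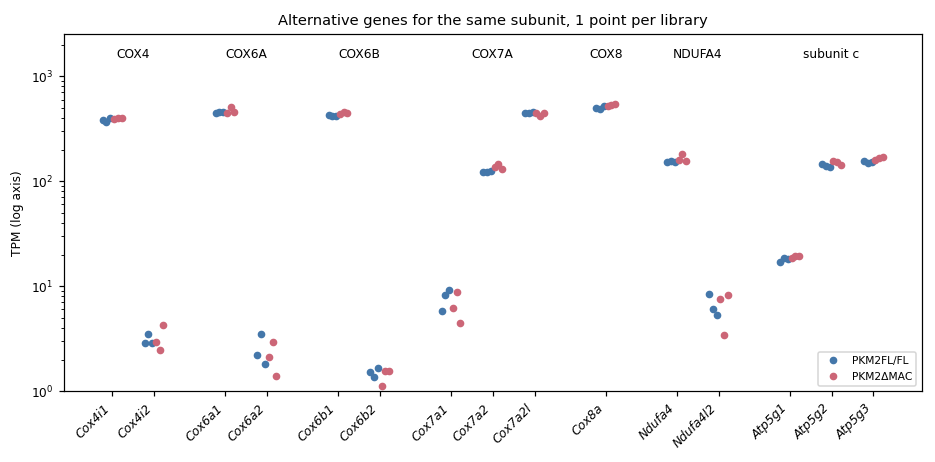
TPM on a log axis (y) in each of the 6 libraries for the alternative genes of a subunit (x), with blue points for PKM2FL/FL and red points for PKM2ΔMAC. The restricted genes sit near 1 to 10 TPM, under the common form of the same subunit, and Atp5g1 sits under Atp5g2 and Atp5g3.

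Expressed as a share of the TPM of its subunit, Cox4i2 made up 0.79 ± 0.12% of Cox4 in PKM2FL/FL and 0.80 ± 0.22% in PKM2ΔMAC cells (SD, n = 3). Cox6a2 made up 0.55 ± 0.19% and 0.45 ± 0.14% of Cox6a, Cox6b2 0.36 ± 0.040% and 0.32 ± 0.052% of Cox6b, and Ndufa4l2 4.14 ± 1.00% and 3.77 ± 1.69% of the Ndufa4 pair. The genotypes overlapped in all of these shares. The log2 fold changes of the 5 restricted genes were all negative, from -0.31 (Cox7a1) to -0.0020 (Cox4i2), with SEs of 0.30 to 0.41, and all 5 intervals included 0. Ndufa4l2, a known target of hypoxia-inducible factor, was at 2.66, 1.89 and 1.67 CPM in PKM2FL/FL against 2.26, 0.983 and 2.52 CPM in PKM2ΔMAC libraries. Its low value came from PKM2ΔMAC replicate 2 and the other libraries of that genotype lay inside the PKM2FL/FL range.

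In the Cox7a set, 2 of the 3 shares did not overlap. Cox7a1, the muscle form, held 1.33 ± 0.27% of Cox7a TPM in PKM2FL/FL and 1.118 ± 0.39% in PKM2ΔMAC cells (SD, n = 3), with overlapping ranges. Cox7a2, the common form, held 21.5, 21 and 21.4% of Cox7a TPM in the PKM2FL/FL libraries and 23.2, 25.2 and 22.5% in the PKM2ΔMAC libraries. Cox7a2l, which codes for the supercomplex factor that joins complexes III and IV, held 77.5, 77.6 and 77.1% and then 75.8, 73.3 and 76.7%. The shift was 2.35 percentage points up for Cox7a2 and 2.14 down for Cox7a2l. Both gave p = 0.1 in the two-sided exact permutation test, the smallest possible, and 0.5 after adjustment over the 10 shares tested. Because shares of a set are bound to each other, these are not separate observations.

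The underlying gene levels showed the same opposite steps. Cox7a2 was at 33.3, 32.2 and 34.1 CPM in PKM2FL/FL against 35.9, 35.9 and 34.5 CPM in PKM2ΔMAC libraries. Cox7a2l was at 188.2, 186.5 and 192.5 CPM and then 183.4, 163.2 and 184.0 CPM. Their log2 fold changes were 0.092 (SE 0.048, adjusted p 0.583 in edgeR's test) and -0.096 (SE 0.052, adjusted p 0.602). The lowest Cox7a2l value and the most shifted shares belonged to PKM2ΔMAC replicate 2. Without that library the shift was 1.56 points for Cox7a2 and -1.14 points for Cox7a2l. Of the 50-base pieces of Cox7a2l transcripts, 13.8% also occur in a processed pseudogene, Gm6969.

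In complex V the catalytic head led in level. Atp5a1, the alpha subunit, and Atp5b, the beta subunit that carries the catalytic sites, were at 527 and 377 TPM in PKM2FL/FL and 557 and 410 TPM in PKM2ΔMAC cells. On the count scale Atp5a1 was at 474.7, 468.9 and 472.8 CPM against 474.4, 471.2 and 478.1 CPM. The genotypes overlapped, and the 95% interval of its log2 fold change ran from -0.075 to 0.090. Over the 17 nuclear genes of the complex the median log2 fold change was 0.0074, and all 17 intervals lay within ±0.5.

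The membrane ring of subunit c is built from a mature protein that 3 genes supply. Atp5g3 supplied 49.0 ± 0.57% of their TPM in PKM2FL/FL and 49.3 ± 2.00% in PKM2ΔMAC cells (SD, n = 3), Atp5g2 45.3 ± 0.73% and 45 ± 2.14%, and Atp5g1 5.78 ± 0.39% and 5.69 ± 0.15%. These shares depend on the length that TPM divides by, 4912 bases for Atp5g1, 1675 for Atp5g2 and 2181 for Atp5g3. As shares of counts, Atp5g1 held 13.5 ± 0.82% and 13.3 ± 0.26%, Atp5g2 35.9 ± 0.77% and 35.8 ± 1.95%, and Atp5g3 50.6 ± 0.57% and 51.0 ± 1.71%. The genotypes overlapped in all 3 shares on both scales, and the exact permutation test of the TPM shares gave p-values of 0.7 to 0.8. Part of Atp5g2 is not unique, since 38.3% of its 50-base pieces also occur in other annotated genes. Atp5o, a stalk subunit at 18.7 TPM, shares its symbol with a second annotated gene model and 41.1% of its pieces with other genes, so its level rests on how the authors' counting treated that overlap.

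Atp5l, subunit g of the membrane part, was the other member with an unadjusted p under 0.05. It was at 39.1, 34.8 and 36.2 CPM in PKM2FL/FL against 39.2, 39.8 and 41.4 CPM in PKM2ΔMAC libraries. The genotypes did not overlap, though the highest PKM2FL/FL and the lowest PKM2ΔMAC values nearly met. The log2 fold change was 0.13 with an SE of 0.056 and a 95% interval of 0.00028 to 0.26, at an adjusted p of 0.508 in edgeR's quasi-likelihood test and p = 0.1 in the exact permutation test. Under the alternatives its estimate ran from 0.091 to 0.20 and its adjusted p from 0.295 to 0.821.

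The 13 mitochondrially coded genes fell into 2 levels that followed their place in the mitochondrial genome. mt-Co1 averaged 14860 TPM over the 6 libraries, mt-Cytb 5664, mt-Nd1 5161, mt-Nd5 3746, mt-Nd6 3045, mt-Nd2 2751 and mt-Nd4 2043 TPM. The other 6 genes were far lower, with mt-Co2 at 92.7, mt-Co3 at 42.8, mt-Atp6 at 41.0, mt-Nd3 at 22.3, mt-Nd4l at 17.1 and mt-Atp8 at 6.42 TPM. These 6 lie side by side, and they are the genes that fall wholly inside a stretch of 4662 bases, chrM:6381-11042, whose sequence has a nuclear copy annotated on chr1:24611535-24616197 on the minus strand (GENCODE M21, GRCm38, the assembly of the mm10 build that the labels name).

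The annotated parts of that copy, which carry the pseudogene names Gm29216, Gm28661, Gm10925, Gm28437, Gm28438, Gm10222 and Gm28439, are almost the same as the genes. Compared base by base with mitochondrial DNA, Gm28661, Gm10925, Gm28437 and Gm28439 showed 0 mismatches over 678 to 876 bases each, Gm28438 showed 1 and Gm29216 showed 6. The first 120 bases of mt-Co2, at chrM:7013-7132, and the corresponding bases of Gm28661, at chr1:24615446-24615565 on the minus strand, are shown from 5′ to 3′ because reads from either place are the same. No capitals appear in this pair because the mismatches numbered 0.
mt-Co2: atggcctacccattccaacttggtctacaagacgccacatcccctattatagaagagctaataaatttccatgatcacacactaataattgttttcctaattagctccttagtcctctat
Gm28661: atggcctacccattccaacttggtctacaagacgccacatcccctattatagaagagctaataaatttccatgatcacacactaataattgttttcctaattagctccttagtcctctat
At the other end of the copy, the 120 bases of mt-Co1 at chrM:6381-6500 and of Gm29216 at chr1:24616078-24616197 are shown with their 6 mismatches in capitals. All 6 fall at the edge of the copy, and counted from 1 at the 5′ end of the stretch, with the mitochondrial base first, they are T3A, C4T, A6G, A7G, C9A and A13T.
mt-Co1: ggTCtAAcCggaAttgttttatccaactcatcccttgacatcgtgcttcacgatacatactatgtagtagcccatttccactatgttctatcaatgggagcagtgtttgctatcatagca
Gm29216: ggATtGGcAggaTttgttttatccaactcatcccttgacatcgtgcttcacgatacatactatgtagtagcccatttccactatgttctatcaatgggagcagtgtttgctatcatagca
Of the 50-base pieces of each gene, 100% of mt-Co2, 99.9% of mt-Co3, 99.5% of mt-Atp6, 98.8% of mt-Nd4l and 98.0% of mt-Nd3 also occurred in another annotated transcript. The share was 62.2% for mt-Nd4 and 51.1% for mt-Co1, which reach out of the copied stretch, 8.2% for mt-Nd2, 7.6% for mt-Nd5 and 0 for mt-Nd1, mt-Nd6 and mt-Cytb. mt-Atp8 lies inside the stretch where the copy is largely unannotated, so its share in annotated transcripts was 0 as well.

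**Figure D4:**
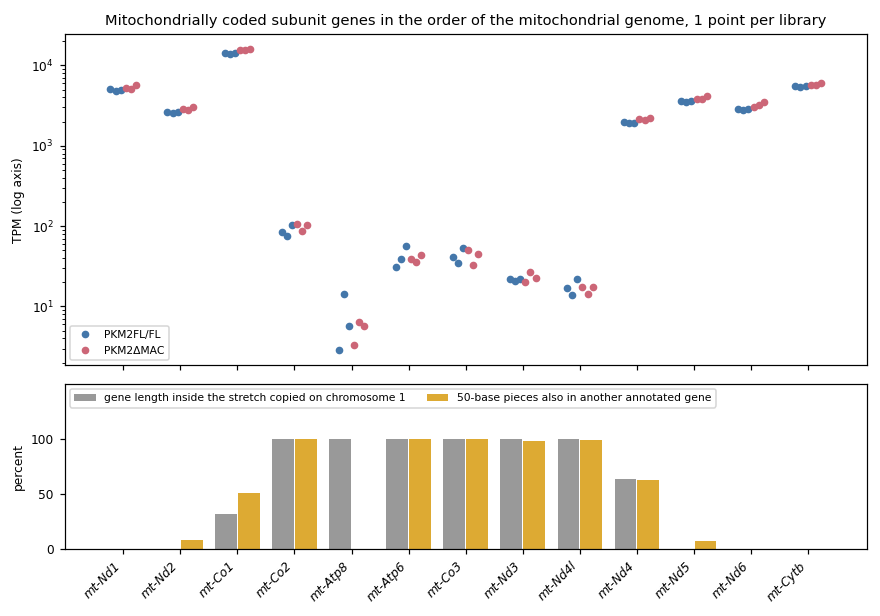
Upper panel, TPM on a log axis (y) of the mitochondrially coded genes in genome order (x), 1 point per library, blue for PKM2FL/FL and red for PKM2ΔMAC. Lower panel, for the same genes, the percent of gene length inside the stretch copied on chromosome 1 (grey) and the percent of 50-base pieces that also occur in another annotated gene (yellow). The 6 genes of low TPM lie wholly inside the stretch, and 5 of them share 98.0% or more of their pieces, mt-Atp8 being the exception at 0.

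The treatment of reads that match more than 1 place was not given in the sources used here. The part of the copy in the low values was not tested. Gm28661 carried counts of the same order as mt-Co2, at 12.9 CPM in PKM2FL/FL against 13.03 CPM in PKM2ΔMAC cells beside 17.1 ± 2.76 and 18.3 ± 2.41 CPM (SD, n = 3) for mt-Co2. The 6 copies other than Gm10222 summed to 44.2 to 53.7 CPM per library. This is far below mt-Co1 (6264 CPM in PKM2FL/FL) and mt-Nd4 (763 CPM). Of these 6, 5 had a positive log2 fold change, with a median of 0.143, and 0 were called (smallest adjusted p 0.542 in edgeR's test). Neighbouring genes also overlap on the mitochondrial genome, mt-Atp8 with mt-Atp6 and mt-Nd4l with mt-Nd4, and mt-Nd6 lies on the strand opposite to the rest.

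Between genotypes, 9 of the 13 mitochondrially coded genes had a positive and 4 a negative log2 fold change, with a median of 0.043, and none separated the genotypes in CPM. The median was 0.0099 without PKM2ΔMAC replicate 3, 0.016 without PKM2FL/FL replicate 2, 0.092 without PKM2ΔMAC replicate 2, 0.072 without PKM2FL/FL replicate 3 and 0.11 in the limma-trend fits on TPM. On TPM, the 7 abundant genes mt-Co1, mt-Cytb, mt-Nd1, mt-Nd2, mt-Nd4, mt-Nd5 and mt-Nd6 did not overlap, with every PKM2ΔMAC value higher. That was 53.8% of the 13, against 19% of all genes in that direction. With Lyz2 left out of the TPM total, 4 of them (mt-Co1, mt-Nd2, mt-Nd4 and mt-Nd5) did not overlap, or 30.8% of the 13, against 8.06% of all genes in that direction. mt-Nd6 had the smallest unadjusted p of the 13, with 432.8, 403.7 and 430.7 CPM in PKM2FL/FL against 429.3, 441.7 and 500.4 CPM in PKM2ΔMAC libraries. The ranges overlapped, and the estimate was 0.11 on the log2 scale (SE 0.063, adjusted p 0.61 in edgeR's test). mt-Nd4 was at 783.5, 748.1 and 756.4 CPM and then 817.8, 750.3 and 847.2 CPM. Its PKM2ΔMAC replicate 2 lay within the PKM2FL/FL range while replicates 1 and 3 lay above it. Without that library the adjusted p of mt-Nd4 was 0.153, the smallest of any member in any alternative, and 4 members (Atp5l, mt-Nd2, mt-Nd4 and mt-Nd5) had an unadjusted p under 0.05, as had 13.3% of all genes in that fit.

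Among the 6 weakly counted genes the spread was wide. mt-Atp8 had the largest estimate of all members and the fewest counts of the mitochondrial genes, with 9, 43 and 17 counts in PKM2FL/FL and 10, 19 and 16 counts in PKM2ΔMAC libraries. The high value of 43 came from PKM2FL/FL replicate 2 and the ranges overlapped. Its log2 fold change of -0.63 had an SE of 0.59 and ran from -1.02 to 0.19 over the alternatives. It turned positive without PKM2FL/FL replicate 2, and with a 95% interval of -1.98 to 0.72 a difference of ordinary size was not detectable at this depth.

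Summed up, the 13 genes took 1.32, 1.29 and 1.33% of the counts of the PKM2FL/FL libraries and 1.37, 1.36 and 1.45% of the PKM2ΔMAC libraries. The shares did not overlap, and the means differed by 0.082 percentage points, which fell to 0.053 points when PKM2ΔMAC replicate 3 was left out. The largest part of this sum was mt-Co1, which made up 47.3 ± 0.11% of it in PKM2FL/FL and 47.3 ± 0.83% in PKM2ΔMAC cells (SD, n = 3). The total against which the share is taken also differs between the genotypes, since Lyz2 alone took 1.67, 1.77 and 1.85% of the counts of the PKM2FL/FL libraries and at most 0.00317% in PKM2ΔMAC. With Lyz2 out of the total, the shares were 1.34, 1.31 and 1.35% against 1.37, 1.36 and 1.45%, still without overlap but with a difference of 0.058 points. These are shares of raw totals, and the separation depends on that scale. In CPM, which uses the TMM-adjusted library size, mt-Co1 was at 6353, 6093 and 6348 against 6547, 6252 and 6759, with overlapping ranges. A share of counts over all 13 members has no test here, and more mitochondrial transcripts per cell and another mix of cells cannot be told apart in bulk RNA.

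**Figure D5:**
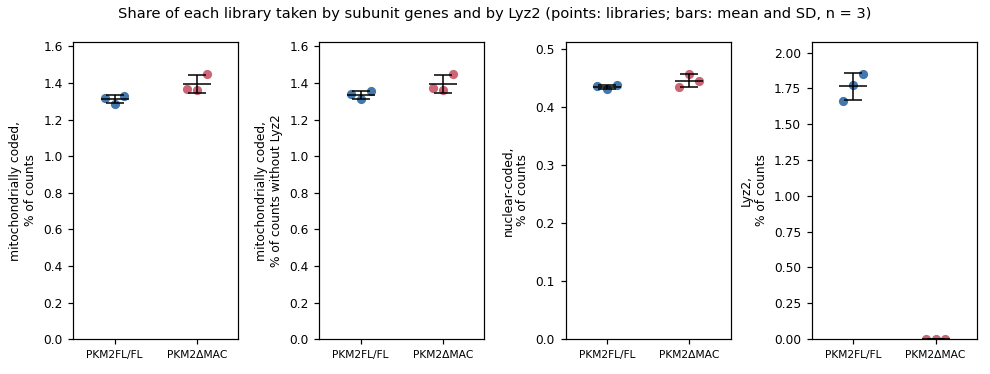
Percent of the counts of each library (y axes, from 0) taken by the mitochondrially coded genes with and without Lyz2 in the total, by the nuclear-coded subunit genes and by Lyz2, for PKM2FL/FL (blue) and PKM2ΔMAC (red). Points are libraries and bars are means with SD over 3 libraries, and the mitochondrial share differs by a small step next to the loss of Lyz2 counts.

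The nuclear-coded members together took 0.435 ± 0.0036% of counts in PKM2FL/FL and 0.445 ± 0.012% in PKM2ΔMAC cells (SD, n = 3), and their ranges overlapped. Of TPM they took 0.924 ± 0.0051% and 0.971 ± 0.029%, without overlap. Within libraries the nuclear and the mitochondrial genes did not keep a fixed order. PKM2ΔMAC replicate 3 had the highest median of the mitochondrially coded genes, 0.12 above the PKM2FL/FL mean on the log2 scale, and PKM2ΔMAC replicate 2 one of the lowest, -0.045. The medians of the nuclear-coded genes stayed between -0.024 and 0.017 in all 6 libraries. The mitochondrial ribosomal RNAs mt-Rnr1 and mt-Rnr2 took 0.096 ± 0.0049% of counts in PKM2FL/FL and 0.086 ± 0.012% in PKM2ΔMAC cells, with overlapping ranges.

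The promoters of nuclear subunit genes are known for sites of NRF-1, of ETS factors such as GABP and of YY1. RefSeq (GRCm38.p6) gave the 250 bases before to 50 bases after the start for 63 members with 68 starts. On either strand, the letters GCGCATGC of the NRF-1 site were in 13.2% of the 68 and in 2.7% of 32851 promoters of all genes, the ETS letters CCGGAAG in 22.1% and 8.9%, and the YY1 letters AAGATGGC in 14.7% and 2.7%. At least 1 of these 3 was in 42.6% of the members' promoters and in 13.3% of all. The letters GGGCGG of SP factors (38.2% and 35.7%) and TATAAA (10.3% and 13.6%) were about as frequent as elsewhere, and the ETS and YY1 letters overlapped each other in 0 of the 68. A match of letters is a description and not a bound site. Among 7 tested regulators of these genes 0 were called, with log2 fold changes from -0.074 (Nrf1) to 0.042 (Pprc1).

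The 250 bases before the start are shown from 5′ to 3′ for 4 members, with the letters of any of the 5 motifs in capitals. Cox6a1 (chr5:115348959-115349208, minus strand) is a common form with 3 of the motifs, and Cox7a1 (chr7:30183921-30184170, plus strand) is a restricted form with 0. Atp5l (chr9:44920743-44920992, minus strand) and Ndufb4 (chr16:37654369-37654618, minus strand) are the members with an unadjusted p under 0.05.
Cox6a1: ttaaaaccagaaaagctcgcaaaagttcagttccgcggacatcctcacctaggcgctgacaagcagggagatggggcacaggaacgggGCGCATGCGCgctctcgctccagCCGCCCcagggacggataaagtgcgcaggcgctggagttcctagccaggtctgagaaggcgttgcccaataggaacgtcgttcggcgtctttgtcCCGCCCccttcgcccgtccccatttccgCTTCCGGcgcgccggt
Cox7a1: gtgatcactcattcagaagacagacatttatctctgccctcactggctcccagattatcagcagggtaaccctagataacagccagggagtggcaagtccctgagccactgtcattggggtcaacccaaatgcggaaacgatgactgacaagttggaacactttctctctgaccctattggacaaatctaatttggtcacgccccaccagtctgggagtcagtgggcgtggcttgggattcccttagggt
Atp5l: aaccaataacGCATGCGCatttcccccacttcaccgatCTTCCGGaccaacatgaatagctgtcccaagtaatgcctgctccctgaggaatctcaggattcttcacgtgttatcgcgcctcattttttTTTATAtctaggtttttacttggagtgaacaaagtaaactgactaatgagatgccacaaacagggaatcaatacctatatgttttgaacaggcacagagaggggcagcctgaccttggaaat
Ndufb4: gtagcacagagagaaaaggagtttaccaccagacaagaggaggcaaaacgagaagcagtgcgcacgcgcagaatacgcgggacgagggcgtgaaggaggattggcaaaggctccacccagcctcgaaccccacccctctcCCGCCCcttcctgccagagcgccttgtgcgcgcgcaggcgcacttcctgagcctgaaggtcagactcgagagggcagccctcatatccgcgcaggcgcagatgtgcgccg
Atp5l, with the higher estimate in PKM2ΔMAC, and Ndufb4, with the lower, had none of the 5 motifs in common.

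Some members lie on the chromosomes of the engineered genes. Cox5a, an inner subunit of complex IV, lies 2.14 Mb from Pkm on chromosome 9 and was at 46.4, 45.5 and 46.8 CPM in PKM2FL/FL against 46.7, 48.7 and 47.5 CPM in PKM2ΔMAC libraries. The ranges overlapped, with a log2 fold change of 0.042 (SE 0.042). Atp5l and Cox7a2, which are among the 6 members without overlap in CPM, lie 14.7 and 20.1 Mb from Pkm on the same chromosome. Ndufb4, Ndufs4 and Cox7a2l, also among the 6, lie on chromosomes 16, 13 and 17. Ndufa4l2 and Atp5b lie 10.2 and 10.8 Mb from Lyz2 on chromosome 10, with log2 fold changes of -0.11 (SE 0.35) and 0.045 (SE 0.043). The part of linked strain variants near the floxed or Cre alleles in any of these values was not tested.

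The genes that serve the chain were also tested, with mitochondrial rRNAs and tRNAs, 6 nuclear copies of mitochondrial DNA and 4 macrophage genes. Of the 186 genes tested over these lists 0 were called by edgeR and 0 by DESeq2, which called 68 and 302 genes of the whole table, and 4 (2.15%, beside 9.83% of all genes) had an unadjusted p under 0.05 in edgeR, of which 2 were in coenzyme Q synthesis, 1 in the mitochondrial ribosome and 1 in the list of macrophage genes. In complex II, which feeds electrons from succinate, 0 of 4 genes were called, and Sdhd had the largest estimate, -0.080 (SE 0.041). Cycs, cytochrome c, was at 25.3 ± 1.07 and 25.7 ± 2.33 CPM. Of the assembly factors, 0 of 15 for complex I, 0 of 6 for complex III, 0 of 22 for complex IV and 0 of 6 for ATP synthase were called, and the largest estimates of these lists at 1 CPM or more were those of Cox17, a copper chaperone, at 0.37 (SE 0.23), and Ndufaf5, at -0.23 (SE 0.15). Of 13 genes of coenzyme Q synthesis 0 were called, with Pdss1, which makes the side chain, at 0.37 (SE 0.16, adjusted p 0.487 in edgeR's test). Of 11 genes of mitochondrial transcription and replication and 79 mitochondrial ribosomal proteins 0 were called, with medians of 0.0060 and 0.0032.

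Among exchange proteins of the inner and outer membrane, 0 of 7 were called and Vdac2 had the largest estimate, 0.093 (SE 0.065). The list of genes named for effects on respiration in activated macrophages held Nos2, Acod1, AA467197 (Nmes1) and Hif1a, of which 0 were called. Hif1a was at 202.7, 209.9 and 222.8 CPM in PKM2FL/FL against 207.8, 205.5 and 190.8 CPM in PKM2ΔMAC libraries, with overlapping ranges. Acod1 was at 4.27, 3.39 and 4.23 CPM and then 2.39, 3.02 and 1.63 CPM, with no overlap and an estimate of -0.75 on the log2 scale (SE 0.23, adjusted p 0.334 in edgeR's test). It was called when PKM2ΔMAC replicate 2 was left out, the only gene of these lists called in any alternative.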

How the data were processed

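RNA of LPS/IFN-γ-primed BMDMs of 3 PKM2ΔMAC and 3 PKM2FL/FL mice was sequenced from libraries made with a SMARTER kit. A table of raw counts and one of TPM values, both by gene symbol, were deposited by the authors. The submitters' processing notes name FastQC 0.12.1, Trim Galore 0.6.10, HISAT2 2.2.1, SAMtools 1.19.2, Subread 2.0.6 and mm10. The annotation release, strand setting and treatment of reads with several matches were not given in the sources used here. Exon lengths of GENCODE M21 matched the length behind TPM within 1% for 14492 of 14724 genes.

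Counts were tested with edgeR 4.0.16 (R 4.3.3, limma 3.58.1), using filterByExpr, TMM factors, a robust quasi-likelihood fit with genotype as the only term, and Benjamini-Hochberg adjustment over 16516 genes. SEs and 95% intervals came from this fit. Single genes were also compared by the two-sided exact permutation test on log2(CPM + 0.1). At totals of 49957449 to 54524651 counts, the spread over libraries holds both differences between mice and counting error. Counting error weighs more as counts fall, also above 10 CPM, and it was not separated from the differences between mice. Functions were tested on simulated data. The alternatives were DESeq2 1.42.0, other normalizations and filters, limma-trend on TPM, the replicate block and each library left out. The deposited columns of both tables were matched to mice by genotype and number. Sequence was compared through GENCODE M21 transcripts and RefSeq promoters, and protein sequences were not used here.

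The members and lists were chosen with earlier results of these data known. Members were named if called, among the 3 largest estimates of their complex at 1 CPM or more, highest or lowest in TPM of their complex, mitochondrially coded, in an isoform set, or without overlap at an unadjusted p under 0.05. Of the other lists, called genes and the 2 largest estimates at 1 CPM or more could be named, and a part of these is given. Ndufs4, Ndufs3, Ndufs8, Ndufa2, Cyc1, Cox5a, Atp5b, Atp5o, Ndufa11b, Ndufb4c, Ndufs6b, Cox6c2, Uqcrc2, Csf1r, Adgre1, Nos2 and AA467197 were named after their values were seen. Values of 1 member are not reported here, although it is kept in all counts and medians. Beside those already given, the marker lists for B cells (3 tested), T and NK cells (1), dendritic cells (5), stromal cells (5), erythroid cells (2) and mast cells and basophils (4) had 0 genes called, and the macrophage list had Itgam higher and Lyz2 lower.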

Additional observations from a re-analysis of the deposited data

How the results depend on the processing

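No member was called under any of the 16 alternatives, and the smallest adjusted p ran from 0.153 to 0.791 over them. Unadjusted p-values under 0.05 belonged to 2 members as reported, to 1 with RLE size factors, 0 with DESeq2, 15 with limma-trend on log2(TPM + 1) or log2(TPM + 0.1) (16% of members, beside 13.4 and 13.3% of all genes), 10 without a filter on TPM (10.5%, beside 10.5%), 1 with the replicate block, and 0 to 4 with each library left out. The limma-trend fits on TPM also moved the nuclear medians, to 0.0703, 0.0707 and 0.0699 for all complexes, 0.0797, 0.0835 and 0.0767 for complex I, 0.0369, 0.0372 and 0.0369 for complex III, 0.0526, 0.0529 and 0.0526 for complex IV and 0.0796, 0.0797 and 0.0796 for complex V (log2(TPM + 1), log2(TPM + 0.1), no filter), beside medians over all genes of 0.0627, 0.0665 and 0.046. The cause was not tested. The difference in the mitochondrial share was 0.341 points of TPM, and members without overlap numbered 27 on TPM in place of 6 on CPM. Other pathway genes called numbered 0, and 0 to 1 with each library left out. The number of genes called in the whole table was 68 and changed most with DESeq2 (302), without PKM2ΔMAC replicate 2 (299), without a filter (120) and without PKM2FL/FL replicate 3 (22).

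The mouse numbers were not taken to pair the samples, since correlations between the deviations of same-numbered libraries were low, at 0.0797, 0.141 and 0.0188. Differently numbered libraries gave -0.124 to 0.067. PKM2ΔMAC replicates 1 and 2 correlated best with the PKM2FL/FL library of their own number, and replicate 3 with PKM2FL/FL replicate 1. A pairing was thus not excluded. With the replicate block 82 genes of the whole table were called in place of 68 and 0 members. Depth limits the restricted isoforms, the retrocopies and the 6 mitochondrial genes of low count.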
